A study of Mus musculus with 42 samples.

Results

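The step from day 5 to day 6 in cultures of D3 mouse embryonic stem cells was followed with 3 RNA samples on each day. D3 is an established line taken from the inner cell mass of a blastocyst, and it was grown here under conditions meant to give osteoblasts, which form bone. The samples were chosen by their titles: the 3 replicates titled d6VD3 make up the day 6 group and the 3 replicates titled Day 5 make up the day 5 group. They are 6 of the 21 RNA samples in the series, and since each RNA went onto 2 Affymetrix chips, MOE430A (430A) and MOE430B (430B), they account for 12 of its 42 arrays. The growth protocol gives DMEM with ascorbic acid, beta-glycerophosphate and vitamin D3 on day 6 and on day 5 alike, whereas the title carries VD3 on day 6 and not on day 5. When vitamin D3 was first added is therefore not settled by the labels. Age of the culture and the VD3 title change together, and all samples come from 1 cell line. No day 6 culture labelled as grown without vitamin D3 was analysed here. The labels leave the contaminating cell types undetermined. They do not say whether replicates were grown separately. Unless stated, the p-values below rest on the spread within days over all 21 RNA samples of the series, which may be technical.

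Active vitamin D binds the vitamin D receptor, which pairs with a retinoid X receptor on DNA. In many tissues the most strongly induced target is Cyp24a1, whose enzyme breaks the hormone down. Differentiating embryonic stem cells pass through mesoderm, from which heart muscle, smooth muscle, endothelium, blood and bone cells derive. Immediate early genes such as Fos and Egr1 encode transcription factors and are switched on within minutes by serum, growth factors or handling. The CArG box is the DNA element bound by serum response factor, which acts on both immediate early and muscle genes, and CATTCC is the core bound by TEAD factors, which work with YAP.

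Signal is in log2 units of the deposited MAS5 value throughout, so a difference of 1 is a doubling. A probe set counted as called when limma's adjusted p was under 0.05, with the Benjamini-Hochberg adjustment over every probe set tested on its chip. On 430A, 15 probe sets rose (0.0899% of 16686 tested) and 2 fell (0.012%). On 430B, 2 rose (0.011% of 18239) and 0 fell (0%), where 514 were lower at an unadjusted p under 0.05 (2.82%). By that looser measure 4.85% of the 430A probe sets were higher and 3.78% lower, and 2.6% of the 430B probe sets were higher. The 3 day 6 values lay above the 3 of day 5 in 8.16% of the 430A and 5.1% of the 430B probe sets, and below them in 5.8% and 6.24%. Array medians were 473.9 to 577.1 on 430A and 808.1 to 866.2 on 430B over the 6 samples, and the median difference over all tested probe sets was 0.07 on 430A and -0.02 on 430B. On 430A all 3 day 6 arrays were scanned in a later batch than the 3 day 5 arrays, so on that chip day and scan batch cannot be told apart. On 430B day 5 replicate 1 was scanned together with the day 6 arrays, which allows values within that batch.

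Day 6 replicate 3 stood apart from the other day 6 arrays, and day 5 replicate 3 from those of its day. On 430A the correlation of day 6 replicate 3 over all tested probe sets was 0.896 and 0.902 with day 6 replicates 1 and 2, which correlated at 0.94. With the day 5 arrays it was 0.897 to 0.914, highest with day 5 replicate 3. Day 5 replicate 3 correlated at 0.873 and 0.893 with day 5 replicates 1 and 2, which correlated at 0.92, and at 0.851 and 0.859 with day 6 replicates 1 and 2. On 430B day 6 replicate 3 had 0.763 and 0.777 with its day, against 0.808 between replicates 1 and 2. Day 5 replicate 3 had 0.773 and 0.794, against 0.818. The RNA of day 6 replicate 3 matched its own partner array on the other chip, as did all 6 RNA samples of the 2 days. The log2 ratio of 3' to 5' signal on 430A, a sign of RNA quality, was 2.94, 1.76 and 2.93 for Gapdh in day 6 replicates 1, 2 and 3. There replicate 2 stood apart and replicate 3 did not. On 430B the ratios were 3.33, 1.98 and 3.14, again lowest in replicate 2. On 430A day 6 averaged 2.54 ± 0.68 and day 5 2.67 ± 0.34 (SD, n = 3 each). The 430A chip of day 6 replicate 3 came from another lot than those of the other 5 samples, and its 430B chip from the same lot as theirs. Without it, 50 probe sets rose on 430A (0.3%) and 23 fell (0.138%), and 13 rose (0.0713%) and 5 fell (0.0274%) on 430B. The 17 probe sets called on 430A with all arrays were all among these, and 1 of the 2 on 430B was.

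The probe sets that rose belonged to 12 genes with a single symbol, and 3 more had no symbol or several. The 12 genes group by role as immediate early and stress factors (Fos, Egr1, Atf3), muscle and matrix genes (Tagln, Ankrd1, Ccn1), calcium-dependent membrane-binding proteins (Anxa1, Anxa3), the retinoid enzyme gene Rdh10, and Upk1b, Tpbgl and Prss23. Atrx was the gene with a called fall. In these bulk cultures, fewer or more cells of a type and less or more RNA per cell cannot be told apart. Stretches of promoter are shown for 6 genes on which the results turn and in which a motif search found a match: Ccn1, Ankrd1, Fos and Atf3, which rose, and the heart muscle genes Actc1 and Myl7, which are described further on. Each is the 250 bases before the RefSeq start of the gene on GRCm38.p6, in the gene's own direction. Capitals mark matches on either strand to the CArG box, to CATTCC and to TGACGT, the core of the element bound by CREB and ATF factors.
Ccn1 (chr3:145649986-145650235, minus strand): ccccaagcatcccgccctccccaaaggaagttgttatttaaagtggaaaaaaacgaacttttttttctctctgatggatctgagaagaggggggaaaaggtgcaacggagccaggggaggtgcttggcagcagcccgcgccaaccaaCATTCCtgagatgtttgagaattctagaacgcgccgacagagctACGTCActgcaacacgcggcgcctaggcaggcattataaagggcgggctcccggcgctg
Ankrd1 (chr19:36119845-36120094, minus strand): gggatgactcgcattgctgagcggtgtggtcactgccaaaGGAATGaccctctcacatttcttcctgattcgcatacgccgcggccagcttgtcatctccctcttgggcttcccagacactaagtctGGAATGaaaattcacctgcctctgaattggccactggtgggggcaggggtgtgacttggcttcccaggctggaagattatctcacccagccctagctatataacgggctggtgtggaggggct
Fos (chr12:85473640-85473889, plus strand): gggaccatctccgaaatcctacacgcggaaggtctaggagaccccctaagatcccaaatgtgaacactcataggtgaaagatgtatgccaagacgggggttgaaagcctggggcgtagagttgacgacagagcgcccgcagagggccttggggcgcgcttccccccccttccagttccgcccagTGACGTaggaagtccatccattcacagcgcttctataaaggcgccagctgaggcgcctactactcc
Atf3 (chr1:191183334-191183583, minus strand): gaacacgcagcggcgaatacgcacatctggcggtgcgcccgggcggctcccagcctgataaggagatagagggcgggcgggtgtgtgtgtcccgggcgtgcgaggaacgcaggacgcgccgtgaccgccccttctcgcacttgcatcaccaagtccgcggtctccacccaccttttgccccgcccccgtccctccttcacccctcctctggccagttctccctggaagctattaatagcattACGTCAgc
Actc1 (chr2:114052876-114053125, minus strand): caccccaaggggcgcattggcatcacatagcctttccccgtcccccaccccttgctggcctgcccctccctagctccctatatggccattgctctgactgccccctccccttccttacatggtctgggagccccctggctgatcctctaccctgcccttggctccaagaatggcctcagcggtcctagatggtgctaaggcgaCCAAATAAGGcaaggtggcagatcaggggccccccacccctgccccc
Myl7 (chr11:5898783-5899032, minus strand): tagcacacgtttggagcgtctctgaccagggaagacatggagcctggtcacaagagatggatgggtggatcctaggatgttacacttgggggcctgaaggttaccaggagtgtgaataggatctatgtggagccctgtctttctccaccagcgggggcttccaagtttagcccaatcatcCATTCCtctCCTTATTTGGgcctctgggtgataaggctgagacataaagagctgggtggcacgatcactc

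Promoters of 7 of the 12 genes that rose were matched by symbol, with 13 start sites in all, and those of Tagln, Egr1, Anxa3, Rdh10 and Upk1b were not. Of the 7 genes, 3 held CATTCC (Ccn1, Ankrd1 and Anxa1), 3 held TGACGT (Ccn1, Fos and Atf3) and 0 held a CArG box. Counted by start site, 3 of the 13 held CATTCC and 3 held TGACGT, and over all 32817 RefSeq start sites with such a stretch, the shares were 12.6% for CATTCC, 6.46% for TGACGT and 1.47% for the CArG box. The CArG box of Actc1 begins 47 bases and that of Myl7 61 bases before the start, and the CATTCC of Ccn1 begins 103 bases before it. Actc1 and Myl7 were shown because they held a match, and matches were not counted over the other heart muscle genes. The 3 motifs do not overlap one another in these 6 stretches. A match describes letters, not binding, and the absence of one concerns only this window.

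Fos, Egr1 and Atf3 rose together. Fos, which pairs with Jun in the AP-1 complex, had a signal of 13.77, 13.87 and 11.90 in day 6 replicates 1, 2 and 3, against 10.40, 10.39 and 10.67 in the day 5 replicates. The day 6 values all lay above those of day 5, with replicate 3 nearest to them, and the difference was 2.69 (SE 0.40, 6.46-fold, limma adjusted p = 0.00901). Egr1, a zinc finger transcription factor, had 14.13, 13.72 and 12.25 on day 6 and 10.75, 10.37 and 10.71 on day 5. Its difference was 2.76 (SE 0.50, 6.75-fold, limma adjusted p = 0.0354), again with day 6 replicate 3 the lowest of its day. Atf3, a stress-induced factor that binds ATF sites, had 10.11, 10.23 and 9.24 on day 6 and 7.55, 7.87 and 7.97 on day 5, a difference of 2.06 (SE 0.40, 4.17-fold, limma adjusted p = 0.046).

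The list of immediate early and stress genes had 39 measured members, where a gene stands for 1 probe set. Of these, 3 rose, 0 fell and 36 were not called, beside 11 risen (0.0705%) and 1 fallen (0.00641%) of all 15592 genes. At an unadjusted p under 0.05, 13 members were higher and 4 lower, where 4.32% and 3.15% of all genes were. The median difference of the list was 0.38, and 0.08 without day 6 replicate 3, beside 0.04 over all genes either way. Among members that were not called, Zfp36, which promotes decay of short-lived mRNAs, differed by 1.28 and Jun by 1.33 (limma adjusted p = 0.133 and 0.163). In the other direction, Ddit4, a stress-induced inhibitor of mTORC1, had 12.86, 12.36 and 13.71 on day 6 and 14.60, 14.67 and 14.73 on day 5, a difference of -1.69 (SE 0.34) that did not pass (limma adjusted p = 0.0663). Ier3 differed by -1.24 (limma adjusted p = 0.0739), with all 3 day 6 values below those of day 5. Without day 6 replicate 3 the list had 7 members risen (Fos, Egr1, Atf3, Jun, Zfp36, Clu and Ier2) and 2 fallen (Ddit4 and Ier3), where 0.263% of all genes rose and 0.109% fell.

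**Figure D1:**
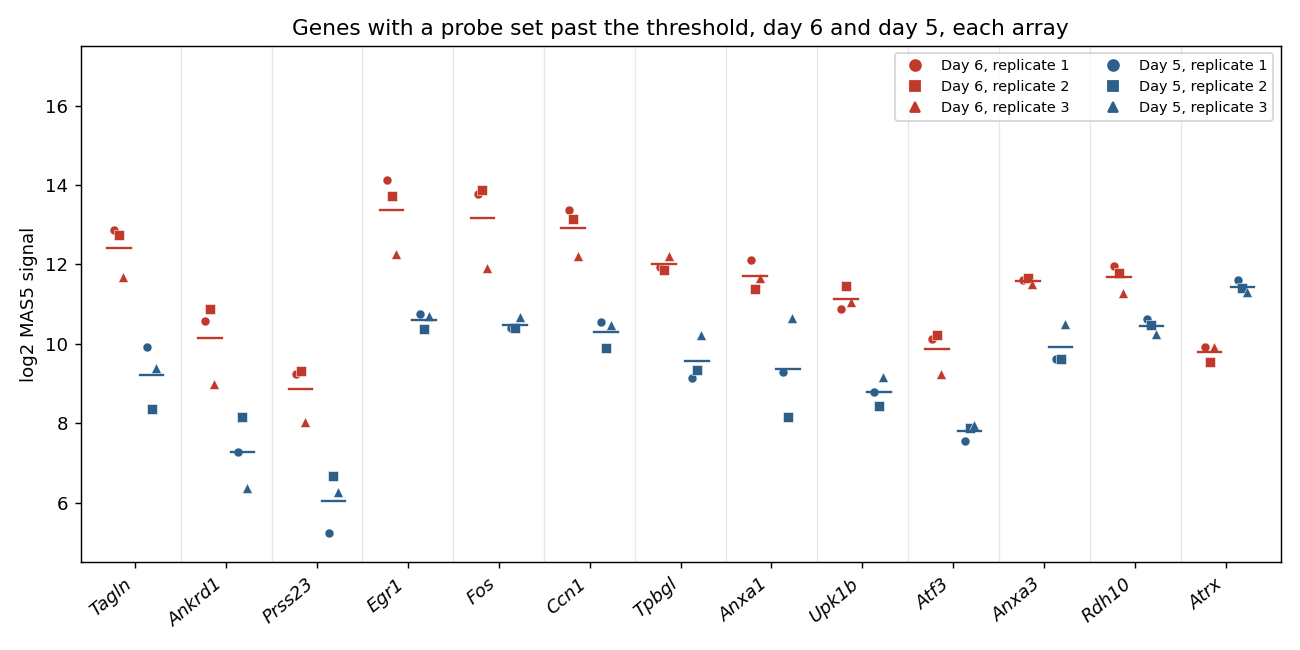
Log2 MAS5 signal of the 12 genes that rose and of Atrx, which fell, with day 6 (red) left of day 5 (blue) for each gene. Points are single arrays, with a shape for each replicate, and bars are means of 3. The day 6 and day 5 values do not overlap for any of these genes, and the day 6 triangle of replicate 3 is lowest of its day for Fos, Egr1, Atf3, Ccn1, Tagln, Ankrd1, Rdh10, Prss23 and, by little, Anxa3.

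Ccn1 had the smallest p of all probe sets on 430A. It encodes a secreted protein of the matrix that signals through integrins and is a known target of YAP and TEAD. Its signal was 13.36, 13.14 and 12.22 on day 6, against 10.56, 9.89 and 10.48 on day 5, a difference of 2.60 (SE 0.31, 6.06-fold, limma adjusted p = 0.000748). The lowest day 6 value thus lay well above the highest of day 5. Another 430A probe set of Ccn1 rose by 2.16 (SE 0.41, limma adjusted p = 0.046). On 430B, 1 Ccn1 probe set had 12.96, 12.57 and 11.24 on day 6 and 9.80, 9.55 and 10.03 on day 5. That difference of 2.46 (SE 0.46) did not pass (limma adjusted p = 0.0806). Against day 5 replicate 1 alone, the day 5 array of the same scan batch, it was 2.45 (SE 0.67). Another on 430B differed by 1.64 (limma adjusted p = 0.854), with overlapping values, and by 1.07 (SE 0.93) against day 5 replicate 1 alone.

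Tagln, which encodes the actin-binding protein transgelin of smooth muscle, had 12.86, 12.73 and 11.68 on day 6 and 9.91, 8.37 and 9.38 on day 5. Its difference of 3.20 (SE 0.46, 9.20-fold, limma adjusted p = 0.00797) was the largest among genes that rose and were above the low-signal bound. Of the 16 measured genes of the smooth muscle list, Tagln rose, 0 fell and 15 were not called. All 16 differences were above 0, as were 8408 of the 15592 over all genes, and their median was 0.96. In 9 members the 3 day 6 values lay above those of day 5, as in 7.32% of all genes. At an unadjusted p under 0.05, 10 were higher, where 4.32% of all genes were. Acta2, the actin of smooth muscle, had 16.05, 15.63 and 14 on day 6 and 14.67, 12.90 and 10.53 on day 5, overlapping values with a difference of 2.53 (SE 0.85, limma adjusted p = 0.354). Cnn1, the actin-binding calponin, had 10.27, 10.54 and 9.64 on day 6 and 6.66, 7.72 and 9.42 on day 5, and was at least 4.34-fold higher without passing (limma adjusted p = 0.274). The words "at least" mean that the gene had a day 5 value under the 20th percentile of all signals on its chip, raised to that percentile to compute the fold. Acta2, Cnn1 and other members named beside a list without passing were chosen after their values were seen.

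Ankrd1, which encodes a nuclear and sarcomeric ankyrin repeat protein of heart muscle and is a known target of YAP and TEAD, was the cardiac list member that rose. One probe set had 10.57, 10.89 and 8.98 on day 6 and 7.29, 8.17 and 6.36 on day 5, at least 6.41-fold higher (difference 2.88, SE 0.47, limma adjusted p = 0.0164). The second had 10.84, 11.32 and 8.76 on day 6 and 5.54, 7.71 and 5.95 on day 5, at least 8.60-fold higher (limma adjusted p = 0.0212). In both, day 6 replicate 3 lay above all of day 5 and below the other day 6 arrays.

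The other cardiac genes turned on day 6 replicate 3. Of the 36 measured, 1 rose, 0 fell and 35 were not called. The median difference was 1.23, made up of medians of 1.91 for day 6 replicate 1, 1.88 for replicate 2 and -0.29 for replicate 3, each against the day 5 mean. Replicate 3 was the lowest day 6 array in 31 of the 36 genes, and day 5 replicate 3 was the lowest of its day in 24 of them. Over all tested probe sets, replicate 3 was lowest on day 6 in 34.7% on 430A and 36.5% on 430B, and lowest on day 5 in 33.2% and 32.1%. In 27 of the 36 both other day 6 arrays lay above all 3 of day 5, as in 16.6% of all 430A and 11.7% of all 430B probe sets. Without day 6 replicate 3, 7 cardiac genes rose and 0 fell, where 0.263% of all genes rose and 0.109% fell. The 7 were Ankrd1, Actc1, Myh6, Myh7, Myl7, Myl4 and Ryr2. Other probe sets of Ttn (5.69), Myl3 (4.15) and Atp2a2 (3.85 and 2.22) passed in that fit, while those standing for these genes did not. With replicate 3 of both days left out, an alternative chosen after seeing the data, 6 of the 36 measured genes rose and 0 fell. Of all 16686 probe sets on 430A, 30 rose in that fit. All 6 genes were among the 7, and both fits used the same day 6 arrays, so the second is not separate evidence. Actc1 missed the threshold there (4.77, limma adjusted p = 0.0517).

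Actc1, the actin of heart muscle, had 15.44, 15.20 and 11.20 on day 6 and 11.05, 10.04 and 10.64 on day 5. The difference was 3.37 over all arrays (SE 0.98, limma adjusted p = 0.265) and 4.74 without day 6 replicate 3 (limma adjusted p = 0.0144). Myh6, the alpha myosin heavy chain, had 13.51, 12.06 and 7.90 on day 6 and 8.32, 7.50 and 8.22 on day 5. In 2 day 6 samples, Myh6 was thus more than 3 units above each day 5 value, and in the other it was within their range. Myl7, the atrial regulatory light chain, had 13.73, 13.12 and 9.92 on day 6 and 10.37, 9.84 and 9.58 on day 5, so replicate 3 fell among the day 5 values here too. The differences without replicate 3 were 4.77 for Myh6 and 3.49 for Myl7 (limma adjusted p = 0.011 and 0.00373), and with it they were 3.14 and 2.33 (limma adjusted p = 0.343 and 0.284). Actc1, Myh6 and Myl7 were chosen after their values were seen.

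On the other chip, a heart gene outside the cardiac list was chosen after its values were seen. It passed without day 6 replicate 3 and not with all arrays, so its low value there is not separate evidence. Nebl, a nebulin relative of the heart Z disc measured on 430B, had 13.46, 13.30 and 9.88 on day 6 and 11.11, 10.08 and 7.76 on day 5. Its difference was 2.56 over all arrays (limma adjusted p = 0.459) and 3.73 without day 6 replicate 3 (limma adjusted p = 0.012). Day 5 replicate 3, the lowest of its day at 7.76, stays in the fit that gave 3.73. Against day 5 replicate 1 alone, in the same scan batch, Nebl differed by 1.11 (SE 0.86). Of the transcription factor genes of the heart field, 0 were called. Isl1, of the second heart field, had 11.36, 11.14 and 10.82 on day 6 and 10.81, 10.74 and 8.07 on day 5, without overlap, and its difference of 1.23 (SE 0.72) did not pass (limma adjusted p = 0.672). Mef2c had 12.53, 12.79 and 8.12 on day 6 and 10.98, 10.37 and 7.98 on day 5, low in replicate 3 of both days (difference 1.37, limma adjusted p = 0.76). Myocd, a partner of serum response factor, had 11.05, 10.43 and 7.85 on day 6 and 8.70, 8.14 and 7.78 on day 5 (difference 1.57, limma adjusted p = 0.58). Nkx2-5 had 10.36, 9.96 and 9.75 on day 6 and 9.31, 10.15 and 9.80 on day 5, which overlap, with a difference of 0.27 (SE 0.35, limma adjusted p = 0.903). Gata4 differed by 0.35 and Tbx5 by 0.16 (limma adjusted p = 0.878 and 0.981).

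**Figure D2:**
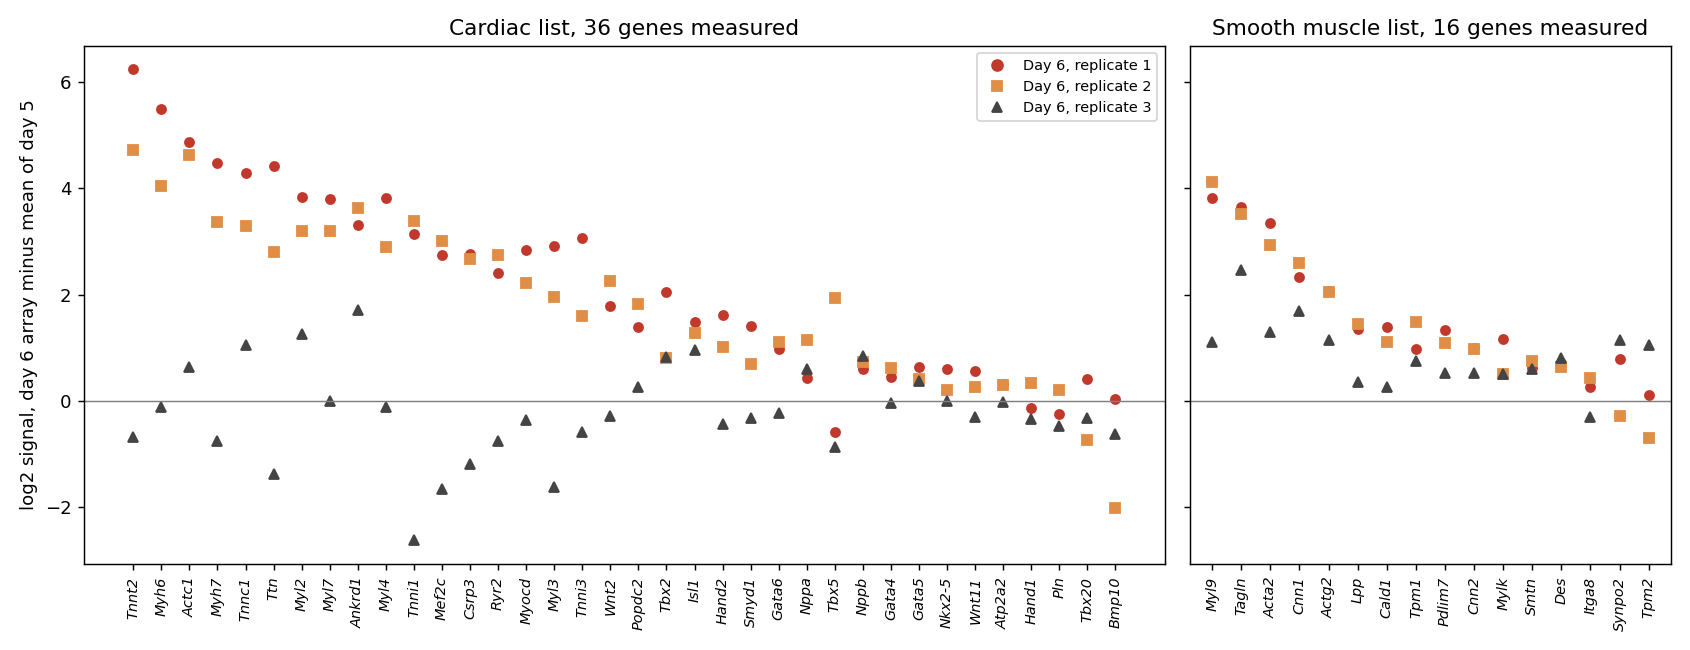
Difference in log2 signal between each day 6 array and the mean of day 5, for the 36 cardiac and 16 smooth muscle genes measured, ordered by the mean of day 6 replicates 1 and 2. Replicate 3 (dark triangles) is lowest of its day in 31 of 36 cardiac and 13 of 16 smooth muscle genes, and its median is -0.29 in the cardiac list and 0.78 in the smooth muscle list.

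Genes of undifferentiated cells were often highest in day 6 replicate 3 among the day 6 arrays. Pou5f1, the pluripotency factor Oct4, had 7.33, 9.39 and 11.11 on day 6 and 9.26, 10.87 and 12.60 on day 5, overlapping values with a difference of -1.63 (SE 0.92, limma adjusted p = 0.652). It was highest in replicate 3 on day 6 and also on day 5. Day 6 replicate 3 was highest of its day in 25 of the 31 measured core pluripotency genes. Over all tested probe sets it was highest in 6380 of 16686 on 430A and 6231 of 18239 on 430B. Day 5 replicate 3 was lowest of its day in 3 of the 31 genes. The medians of that list were -0.61, -0.10 and 0.57 in day 6 replicates 1, 2 and 3, and -0.03 over all, or -0.31 without replicate 3. Of the 31, 0 rose and 0 fell. At an unadjusted p under 0.05, 1 was higher and 0 were lower, where 4.32% and 3.15% of all genes were. Among the 53 DNA replication and mitosis genes 0 were called, and without replicate 3 Cdc25a, a phosphatase that drives entry into S phase, fell (-1.31, limma adjusted p = 0.0332; -1.20 and adjusted p = 0.0664 with it). What part the make-up of this sample has in these differences was not tested.

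**Figure D3:**
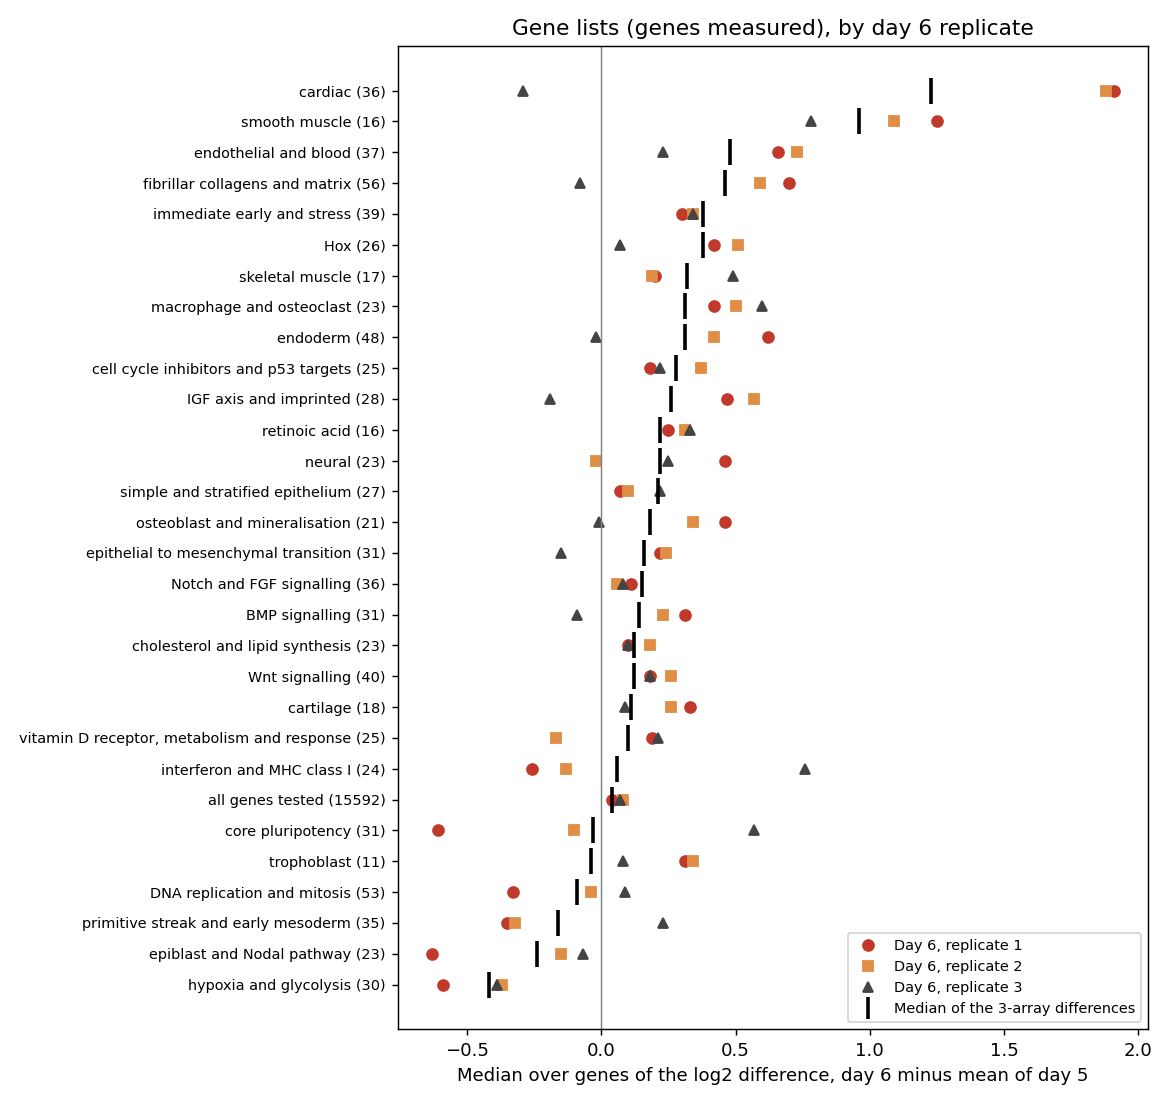
Median over the measured genes of each list of the log2 difference between day 6 and the day 5 mean, for each day 6 replicate and for the 3 arrays together (black bars), with all 15592 genes as one entry. The cardiac list spans -0.29 to 1.91 between replicates, while the hypoxia and glycolysis list lies at -0.59 to -0.37 and all genes at 0.04 to 0.08.

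Anxa1 and Anxa3 encode annexins, which bind membrane phospholipids when calcium is present. Anxa1 had 12.12, 11.37 and 11.67 on day 6 and 9.30, 8.15 and 10.66 on day 5, a difference of 2.35 (SE 0.44, 5.10-fold, limma adjusted p = 0.0446). Anxa3 had 11.61, 11.66 and 11.50 on day 6 and 9.63, 9.62 and 10.49 on day 5, a difference of 1.68 (SE 0.28, 3.20-fold, limma adjusted p = 0.0164). For both genes day 6 replicate 3 lay with the other day 6 arrays, and day 5 replicate 3 was the highest of its day.

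Rdh10, whose enzyme oxidises retinol to retinal on the way to retinoic acid, had 11.96, 11.79 and 11.28 on day 6 and 10.63, 10.47 and 10.24 on day 5. The difference was 1.23 (SE 0.24, 2.35-fold, limma adjusted p = 0.0489), and its 430B probe set differed by 1.39 over all arrays (limma adjusted p = 0.2) and by 0.95 (SE 0.42) within the scan batch. Rdh10 was the only riser among the 16 measured genes of the retinoic acid list, of which 0 fell. Prss23, a secreted serine protease, had 9.23, 9.31 and 8.03 on day 6 and 5.23, 6.68 and 6.26 on day 5, at least 3.75-fold higher (limma adjusted p = 0.0212). It lay under the median signal of the chip and was chosen after its value was seen. A further 430A probe set of Prss23 was at least 4.53-fold higher without passing (limma adjusted p = 0.354).

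The called probe sets of both 430B risers had similar values in all day 6 samples. Upk1b, a uroplakin tetraspanin known from the lining of the bladder, had 10.87, 11.46 and 11.05 on day 6 and 8.79, 8.43 and 9.16 on day 5, a difference of 2.34 (SE 0.36, 5.05-fold, limma adjusted p = 0.0199). Its 3 other 430B probe sets differed by 0.99, 1.41 and 2.84 and did not pass, and within the scan batch they differed by -0.23, 0.95 and 1.23. The one at 2.84 had 12.34, 11.19 and 8.95 on day 6 and 9.59, 7.20 and 7.16 on day 5, low in day 6 replicate 3 and overlapping, and was at least 5.72-fold higher. Tpbgl had 11.93, 11.87 and 12.21 on day 6 and 9.15, 9.33 and 10.23 on day 5, a difference of 2.43 (SE 0.41, 5.39-fold, limma adjusted p = 0.0435), which missed the threshold without day 6 replicate 3 (limma adjusted p = 0.0517). Against day 5 replicate 1 alone, in the same scan batch, the difference was 2.34 (SE 0.50) for the called probe set of Upk1b and 2.85 (SE 0.56) for Tpbgl, and neither passed (limma adjusted p = 0.202 and 0.138).

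One probe set of Atrx, which encodes a chromatin remodeller on the X chromosome, had 9.93, 9.54 and 9.91 on day 6 and 11.62, 11.40 and 11.30 on day 5. It fell by 1.64 on the log2 scale (SE 0.31, limma adjusted p = 0.0446), with no overlap. The 5 other Atrx probe sets, 3 on 430A and 2 on 430B, differed by -0.48 to 1.87 and were not called, so the probe sets of this gene disagree.

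Leaving out 1 array at a time ended many of these calls. Of the 15 named probe sets that were called, 1 passed without day 6 replicate 1 and 1 without day 6 replicate 2 (Ccn1 both times, limma adjusted p = 0.0142 and 0.0138), and 14 passed without day 6 replicate 3. Without day 5 replicate 1, 2 or 3, 5, 6 and 7 passed. Every difference kept its sign. When limma used only the arrays of days 5 and 6, 0 of the 15 passed, with Ccn1 and Tagln at an adjusted p of 0.253.

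Over the whole course, the day 6 level of these genes was not a passing peak. The day 16 mean was above the day 6 mean in all 12 genes that rose, and the day 30 mean in 10 of them. On day 8 the mean was above that of day 6 in 8 of the 12, and below it in Fos, Egr1, Tpbgl and Ccn1. Fos had means of 10.38 on day 4, 13.18 on day 6, 12.40 on day 8 and 14.59 on day 30. The exceptions on day 30 were Tagln, with 14.03 on day 8 and 10.92 on day 30, and Prss23, with 10.37 on day 8 and 8.29 on day 30. On 430A, days 8 and 16 share the scan batch of day 6, days 4 and 5 lie in an earlier one, and days 25 and 30 in others.

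**Figure D4:**
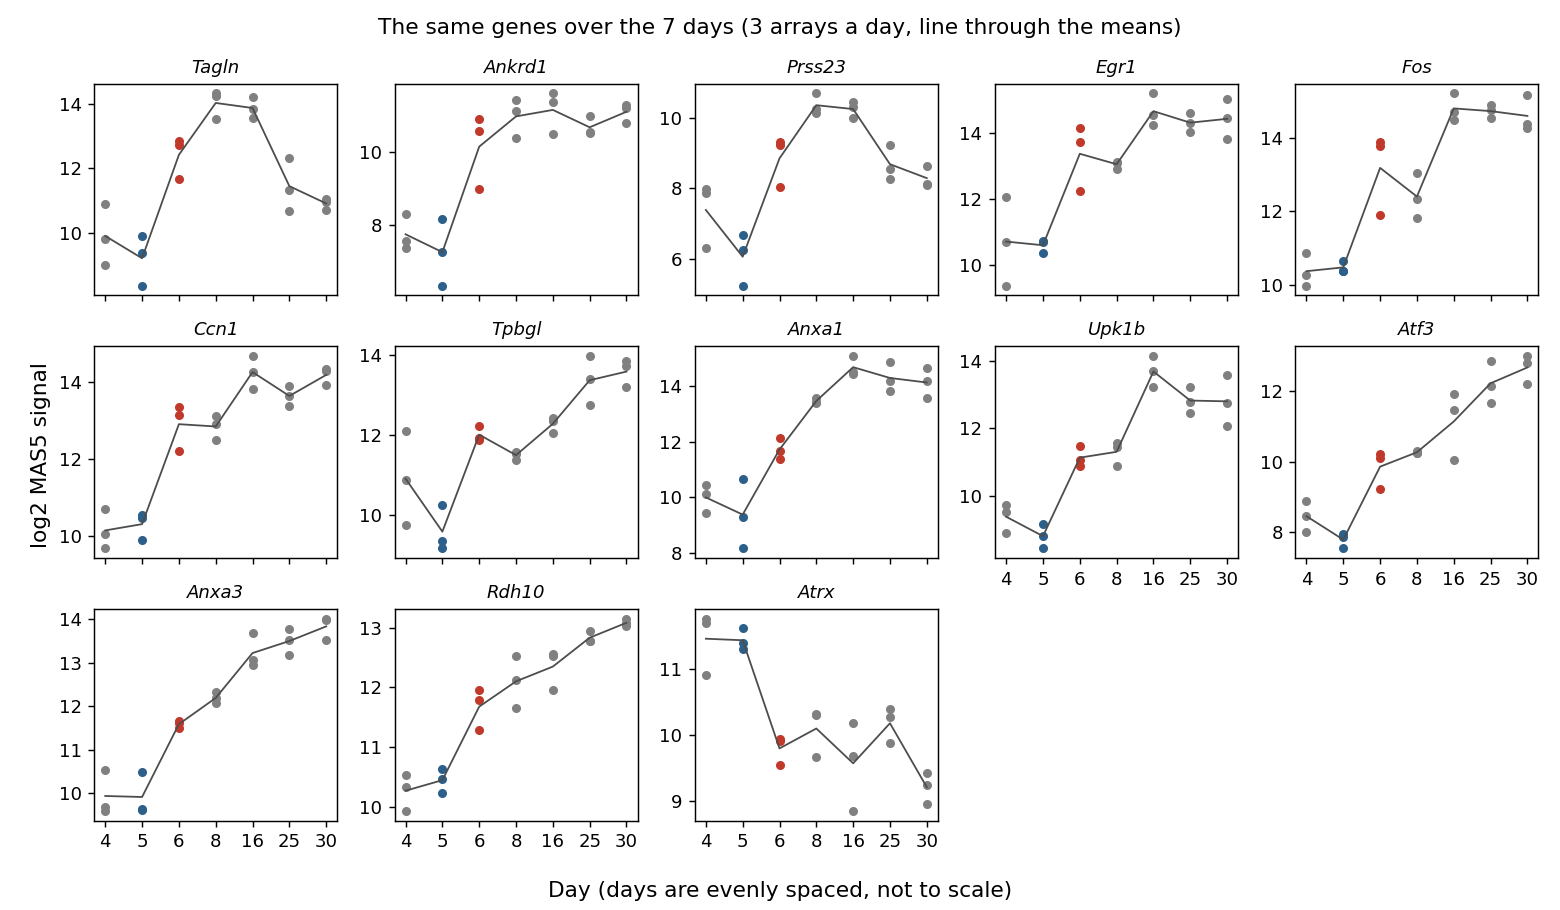
Log2 MAS5 signal of the same 13 genes on the 7 days from day 4 to day 30, with 3 arrays a day as points and a line through the means; day 6 is red and day 5 blue. In all 12 genes that rose the day 16 mean lies above the day 6 mean, and Tagln and Prss23 come down again by day 30.

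Genes of the vitamin D pathway, the list that the VD3 title brings to mind, showed no called change. Of 25 measured members, 0 rose and 0 fell, with a median difference of 0.10, or 0.05 without day 6 replicate 3. At an unadjusted p under 0.05, 1 was higher and 1 lower, where 4.32% and 3.15% of all genes were. Cyp24a1 had 9.21, 8.42 and 8.46 on day 6 and 6.46, 7.02 and 7.15 on day 5. All 3 day 6 samples, replicate 3 included, lay above all of day 5, and the signal was at least 3.16-fold higher (difference 1.82, SE 0.54), but it did not pass (limma adjusted p = 0.273; 0.187 without day 6 replicate 3). Atp2b1, a calcium pump of the cell membrane, had 14.04, 13.79 and 13.57 on day 6 and 15.14, 14.21 and 14.45 on day 5, a difference of -0.80 (SE 0.33, limma adjusted p = 0.854).

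The receptor gene Vdr had a weak and scattered signal, with 7.02, 3.85 and 6.39 on day 6 and 7.41, 7.45 and 4.67 on day 5, and values of both days lay under the low-signal bound of 6.95. Its partners Rxra and Rxrb differed by -0.08 and -0.23 (limma adjusted p = 0.982 and 0.942). The coactivator genes Ncoa1, Ncoa2 and Ncoa3 differed by 0.21, 0.44 and 0.45, and Med1 by -0.39. Among enzymes that make or activate the hormone, Cyp27a1 differed by -0.16. Cyp2r1 had 4.51, 5.71 and 8.85 on day 6 and 8.65, 8.35 and 8.60 on day 5, so replicates 1 and 2 of day 6 were low and replicate 3 was not.

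The other calcium and phosphate handling genes of the list overlapped between the days. Trpv6, the intestinal calcium channel, differed by 0.35, Calb1 by -0.16, Slc34a1 by 0.10 and Slc34a2 by 0.24. S100g and Calb2, which encode calcium-binding proteins, had values under the low-signal bound and get no fold. Car2, a carbonic anhydrase, differed by -0.79. The cell cycle inhibitors Cdkn1a and Cdkn1b differed by -0.23 and 0.21. Of the remaining members, Igfbp3 differed by 0.90, Tgfb2 by 0.75, Cd14 by 0.49 and Fgf23 by 0.08, Thbd was at least 1.40-fold higher, and none passed.

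**Figure D5:**
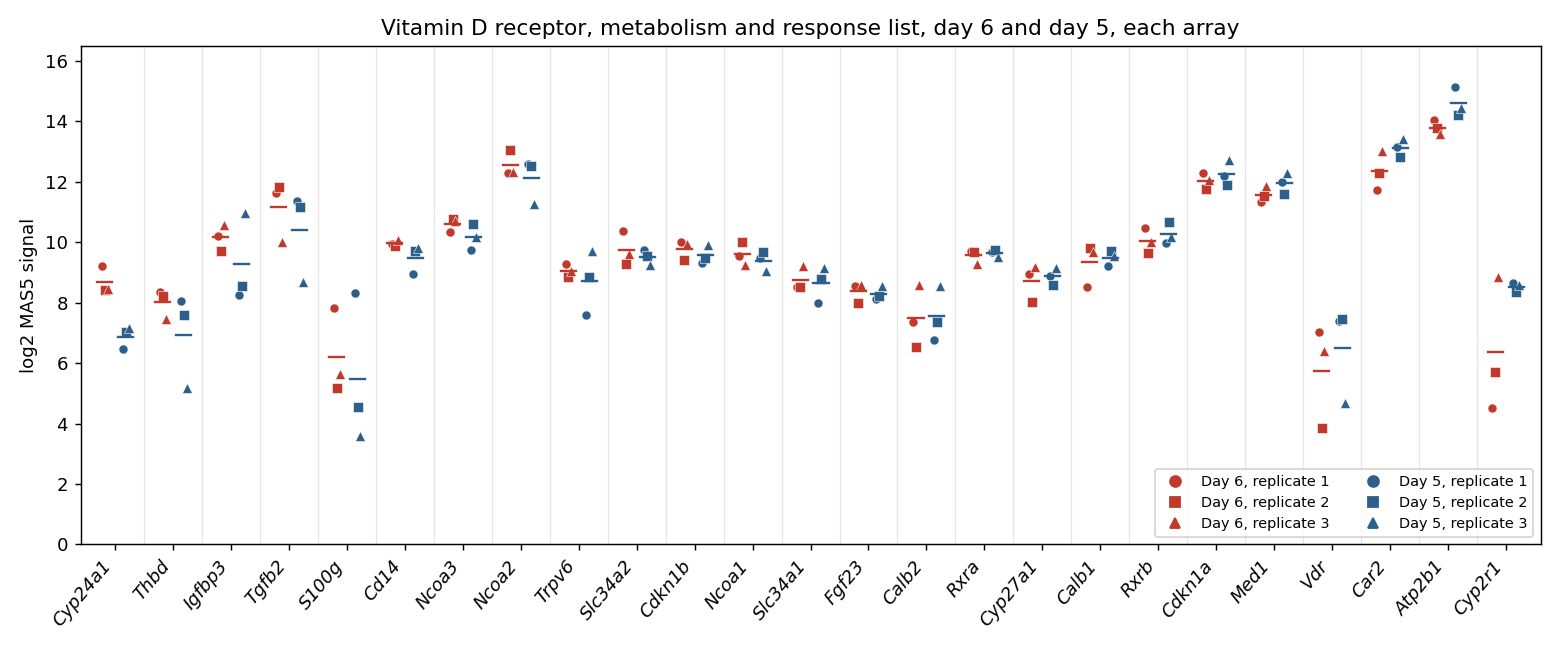
Log2 MAS5 signal of the 25 measured genes of the vitamin D list, with day 6 (red) left of day 5 (blue), single arrays as points and means of 3 as bars, ordered by difference. Cyp24a1 is at the left with 8.42 to 9.21 on day 6 above 6.46 to 7.15 on day 5, and Cyp2r1 at the right has 2 low day 6 arrays.

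Bone genes did not separate the days. Of 21 measured members of the osteoblast and mineralisation list, 0 rose and 0 fell, and the median was 0.18, or 0.39 without day 6 replicate 3. The labels list 5 genes followed by RT-PCR, and 1 of them was measured here. That was Sparc, which encodes osteonectin and had 13.52, 13.79 and 13.08 on day 6 and 13.32, 13.32 and 11.61 on day 5, overlapping values with a difference of 0.71 (SE 0.41, limma adjusted p = 0.653). Sp7, the osteoblast factor osterix, differed by 0.50 and Alpl, the phosphatase of mineralising cells, by -0.14 (limma adjusted p = 0.768 and 0.974). Col1a1, the main collagen of bone, had 13.65, 13.10 and 12.77 on day 6 and 13.62, 12.61 and 10.28 on day 5, where the low value is day 5 replicate 3.

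Matrix genes beyond bone included 1 riser, Ccn1, among 56 measured, with 0 fallen and a median of 0.46. In 10 of the 56 the day 6 values lay above those of day 5, as in 7.32% of all genes, and in 1 below, as in 5.55%. Tnc, the matrix glycoprotein tenascin C, had 11.05, 11.30 and 9.08 on day 6 and 8.26, 7.67 and 7.57 on day 5. Its difference of 2.64 (SE 0.54) just missed the threshold (limma adjusted p = 0.0674) and passed without day 6 replicate 3 (3.34, limma adjusted p = 0.00373). Ccn2, a relative of Ccn1 and likewise a known YAP target, differed by 1.71 with no overlap (SE 0.49, limma adjusted p = 0.262).

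Hypoxia and glycolysis genes had a median difference below 0 in all 3 day 6 samples, and no member was called. Of 30 measured, 0 rose and 0 fell, and 5 differences were above 0, as were 8408 of the 15592 over all genes. The median difference was -0.42, and it was -0.59, -0.37 and -0.39 in day 6 replicates 1, 2 and 3. In 12 of the 30 the 3 day 6 values lay below those of day 5, as in 5.55% of all genes, and in 1 above. At an unadjusted p under 0.05, 14 were lower and 1 higher, where 3.15% and 4.32% of all genes were. Aldoa, which encodes the glycolytic enzyme aldolase, had 15, 15.46 and 15.63 on day 6 and 16.07, 16.40 and 16.21 on day 5, a difference of -0.86 (SE 0.22, limma adjusted p = 0.163). Pkm, pyruvate kinase, differed by -1.01 (SE 0.26, limma adjusted p = 0.173), and Egln3, a prolyl hydroxylase that HIF induces, by -0.91 (SE 0.26, limma adjusted p = 0.264). Hif1a itself differed by 0.54, with overlapping values. Scan batch changes with day on this chip, and its part in these differences was not tested.

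Endothelial and blood genes had 37 measured members, of which 0 were called, with a median of 0.48. Of the 37, 7 were higher at an unadjusted p under 0.05, where 4.32% of all genes were. Cdh5, the cadherin of endothelial junctions, had 10.30, 10.05 and 9.46 on day 6 and 8.83, 8.81 and 8.87 on day 5, a difference of 1.10 (SE 0.27, limma adjusted p = 0.145). Tek, the angiopoietin receptor, differed by 1.74 (limma adjusted p = 0.216). Without day 6 replicate 3 both passed, at 1.34 and 2.25 (limma adjusted p = 0.0384 and 0.0351). That fit keeps day 5 replicate 3, which for Tek was the lowest of its day (10.41, 9.05 and 8.40 on day 5). It was lowest of its day in 28 of the 37 genes, as in 33.2% of all 430A probe sets, but not for Cdh5. Embryonic globin varied far more within a day than between days: Hbb-y had 15.59, 15.11 and 10.58 on day 6 and 15.06, 13.12 and 7.05 on day 5, lowest in replicate 3 of each day.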

How the data were processed

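Total RNA of 3 samples a day was hybridised to MOE430A and MOE430B chips. The deposited signal intensity is MAS5 output, as the submitters' processing notes state. Its version is not given in the sources used here. The trimmed mean of every array was 1500 to within rounding, so the authors had scaled the deposited intensities per array. The log2 of each signal was used, without an offset. Of 22690 and 22575 probe sets, 64 controls on each chip were left out, and testing needed a signal over the 40th percentile of the array on 3 or more arrays. Separate fits for the 2 chips were made with limma 3.58.1 in R 4.3.3 (package data.table at 1.17.8), taking all 21 arrays and a day factor (14 residual degrees of freedom), eBayes with trend, and two-sided Benjamini-Hochberg adjusted p-values. The fit was tested on simulated data. Symbols came from the platform annotation, matched to RefSeq (GRCm38.p6) by Entrez identifier. A list gene stands for its brightest tested 430A probe set, or else its brightest on 430B. Named genes were risers and fallers with 1 symbol, no overlap between days and a mean above the chip's median, the vitamin D list, and up to 4 called members of each list, or 2 where none passed. Exceptions are stated beside their values. Members and the 30 gene lists were chosen with earlier results of these data known. Figures used matplotlib 3.10.9. Alternatives were the arrays of days 5 and 6 alone, a replicate block, filters, an offset, quantile normalization, median centring, eBayes without trend, array weights, scan batch and single arrays left out. The number of arrays limits the precision.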

Additional observations from a re-analysis of the deposited data

How the results depend on the processing

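Counts of called probe sets depended on the setting. On 430A, against 15 risen and 2 fallen, limma gave 24 and 12 with the replicate block, 36 and 21 with array weights, 8 and 1 after quantile normalization, 8 and 5 after median centring, 6 and 1 without trend, 8 and 0 with no filter on low signal, 15 and 4 with a filter at the 60th percentile, and 0 and 0 from the arrays of days 5 and 6 alone, where 1396 had an unadjusted p under 0.05. On 430B, against 2 risen and 0 fallen, it gave 6 risen with the block, 10 risen and 2 fallen with array weights, 7 risen with scan batch as a covariate (neither Upk1b nor Tpbgl among them), 1 risen after quantile normalization, 0 with no filter, without trend and from the 2 days alone (1083 at an unadjusted p under 0.05), and, chosen after seeing the data, 3 against the lone day 5 array of the same scan batch. Without replicate 3 of both days, also chosen after seeing the data, 30 rose and 2 fell on 430A and 9 and 0 on 430B. Leaving out single arrays gave 2 to 50 risen and 0 to 23 fallen on 430A and 0 to 13 and 0 to 5 on 430B, the highest without day 6 replicate 3. The offset of 100 kept 13 of the 15 named called probe sets, and 0 of 244 repeats turned a sign. Whether replicate numbers pair the samples is not settled by the labels or by these values. Deviations from the day mean correlated at 0.22, 0.07 and 0.36 between same-numbered samples on 430A and 0.07, 0.01 and 0.10 on 430B. Between differently numbered samples they correlated at -0.3 to 0.16 on 430A and -0.1 to 0.03 on 430B. Actc1 passed with the block (limma adjusted p = 0.0464).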

Other observations

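Other gene groups had few called members. Among macrophage and osteoclast genes, 0 of 23 were called, 7 had all 3 day 6 values above those of day 5, as in 7.32% of all genes, and the medians were 0.42, 0.50 and 0.60 in day 6 replicates 1, 2 and 3. Csf1r, the receptor of the macrophage growth factor CSF1, had 11.25, 11.02 and 10.89 on day 6 and 10.00, 10.53 and 10.33 on day 5 (difference 0.77, limma adjusted p = 0.606). Interferon and MHC class I genes also had 0 of 24 called. The chemokine gene Cxcl10 had 8.19, 8.77 and 8.53 on day 6 and 5.42, 5.19 and 7.15 on day 5, at least 2.78-fold higher against weak day 5 signals (limma adjusted p = 0.215). The median of that list was 0.06, or -0.21 without day 6 replicate 3.

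Endoderm genes had 0 of 48 called and a median of 0.31, or 0.51 without day 6 replicate 3. Afp, the alpha-fetoprotein of visceral endoderm and fetal liver, had 13.19, 12.49 and 9.29 on day 6 and 10.82, 9.08 and 6.37 on day 5, lowest in replicate 3 of both days (at least 6.52-fold higher, limma adjusted p = 0.419). Of the Hox genes, 0 of 26 were called, with a median of 0.38. Fgf4, a growth factor of pluripotent cells, had 9.85, 9.81 and 10.15 on day 6 and 7.89, 9.89 and 7.35 on day 5 (difference 1.56, limma adjusted p = 0.263). Of the primitive streak and early mesoderm list 0 of 35 and of the neural list 0 of 23 were called, with medians of -0.16 and 0.22, or -0.37 and 0.22 without day 6 replicate 3. Tet1, whose enzyme oxidises methylated cytosine, had 12.59, 12.76 and 13.47 on day 6 and 14.10, 14.70 and 14.58 on day 5 on 430B. It was chosen after its values were seen, and it differed by -1.52 over all arrays (limma adjusted p = 0.123), by -1.78 without day 6 replicate 3 (limma adjusted p = 0.0206) and by -1.15 (SE 0.43) within the scan batch.

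The remaining lists had 0 called members each: 40 Wnt signalling, 36 Notch and FGF signalling, 31 BMP signalling, 31 epithelial to mesenchymal transition, 28 IGF axis and imprinted, 27 epithelial, 25 cell cycle inhibitor and p53 target, 23 epiblast and Nodal pathway, 23 cholesterol and lipid synthesis, 18 cartilage, 17 skeletal muscle and 11 trophoblast genes were measured. Their medians ran from -0.24 (epiblast and Nodal pathway) to 0.32 (skeletal muscle). Without day 6 replicate 3 the highest was 0.69, for the IGF axis and imprinted genes, whose median was 0.26 with it. Leaving it out also gave 0.28 for epithelial to mesenchymal transition (0.16 with it), 0.29 for BMP signalling (0.14), 0.28 for cartilage (0.11), 0.08 for Notch and FGF signalling (0.15) and 0.11 for trophoblast genes (-0.04). Without day 6 replicate 3, Plk2, a kinase gene of the p53 response, rose by 1.86 (limma adjusted p = 0.00812), against 1.43 with it (limma adjusted p = 0.13).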
